A study of Homo sapiens with 6 samples.

Results

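The 40 genes described here are very long: each spreads its exons over 0.429 to 2.47 Mb of the genome, and several of them cover common fragile sites. They were taken by symbol from a fixed list, which was drawn up with earlier results of these data known. All 40 were found among the 60664 genes of the count tables. RNA came from D283 Med, a human line of MYC-amplified Group 3 medulloblastoma, a childhood tumour of the cerebellum. The 3 knockdown libraries (KD) came from cells transfected with an LNA GapmeR, an antisense oligonucleotide that recruits RNase H, directed at the long non-coding RNA lncMB3. The 3 control libraries (SCR) came from cells of the same line given a scrambled GapmeR. No drug, dose or time point is given in the labels. Everything comes from 1 line. Whether the replicates were grown apart is not in the labels, so the error behind every p-value is that among these libraries and may be technical.

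A very long gene is nearly all intron, and RNA polymerase II needs hours to cross it. Transcription and replication can therefore meet within such genes, and many common fragile sites, the places where chromosomes break under replication stress, lie inside them. Long genes are also typical of neurons, where they encode synaptic adhesion molecules, scaffolds and ion channel partners, and neuronal long genes are known to depend on topoisomerases. By GENCODE release 29 (GRCh38) the listed genes had a median span of 1.20 Mb, of which exons made up a median of 0.878%, with a longest gap between exons of 37.4 to 721 kb. The list was divided by general knowledge of expression into 20 genes classed as neuronal, 13 as expressed in most tissues and 7 as restricted to other tissues. No expression dataset was used for this, so the classes are approximate. In these cells GPC6 and DMD, of the last class, had the highest levels of the tested members per length of exon.

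Total counts ran from 7765826 to 19989654 in KD libraries and from 17072573 to 20035834 in SCR libraries, with the lowest total in KD library 1, so low genes were measured least precisely there. Levels are given as CPM, counts scaled to a fixed library size. Group 3 markers were present in every library, with 9 markers summing to 2731 to 2821 CPM in KD and 2908 to 3158 CPM in SCR. Of these 9, 6 were called lower (OTX2, CRX, NRL, NEUROD1, EYA2 and IMPG2) and GABRA5 higher, against 15.9% of all tested genes in each direction. Markers of other cell types summed to 29.9 to 33.8 CPM in KD and 37.5 to 41.1 CPM in SCR over 16 genes, mostly from COL1A1 and PDGFRB. Of these 16, 5 had no count in any library, among them CDH5 and MBP. Of the 5 that were tested, COL1A1 and DCN were called lower, too few to set a share against the 15.9% of all tested genes called lower. The part of either marker list in the results below was not tested. The transcript lncMB3 itself was not analysed here, and loss of lncMB3 cannot be told apart from other effects of its GapmeR.

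The comparison asks which very long genes differ in level with knockdown of lncMB3. The largest falls of tested members were in DLG2 and ERC2, scaffold genes of the synapse. Of the 29 genes with enough counts to be tested, 11 fell and 0 rose at an adjusted p of 0.05, against 15.9% of all 14673 tested genes called lower and 15.9% called higher (31.7% in either direction). The 11 are DLG2, ERC2, DPP6, PTPRD, DAB1, AUTS2 and NBEA among neuronal genes, PARD3B and EXOC4 among broadly expressed ones, and EYS and GPC6 among the rest. Falls ran from 1.20-fold in NBEA to 2.41-fold in DLG2. No member had a positive change with an unadjusted p under 0.05 by edgeR, and DESeq2 and limma-voom also called 0 higher. The libraries of the groups did not overlap in 18 members lower in KD and in 1 higher, against 23.1% and 22.9% of all tested genes. The median log2 change (KD over SCR) of the 29 was -0.35, against 0.00 over all tested genes. A gene can pass the low-count filter through the higher group alone, so these counts describe the tested members and not the whole list.

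In these bulk samples fewer cells of a type and less RNA per cell cannot be told apart. Other long genes were also often called lower. Of 176 tested genes of at least 500 kb that are not in the list, 74 (42%) were called lower and 4 (2.27%) higher, with a median log2 change of -0.37. The median span was 1118 kb in the 29 tested members and 639 kb in these 176 genes. At 1 Mb and over, 8 of 18 tested members (44.4%) and 7 of 13 other genes (53.8%) were called lower. When a smooth trend of level on span was removed from each library, a trend fitted on genes that include the members, ERC2 alone was called lower, and CNTNAP2, PTPRG, IMMP2L, FTO, TCF4, PARD3 and DMD were called higher. The median of the 29 was then 0.09.

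**Figure D1:**
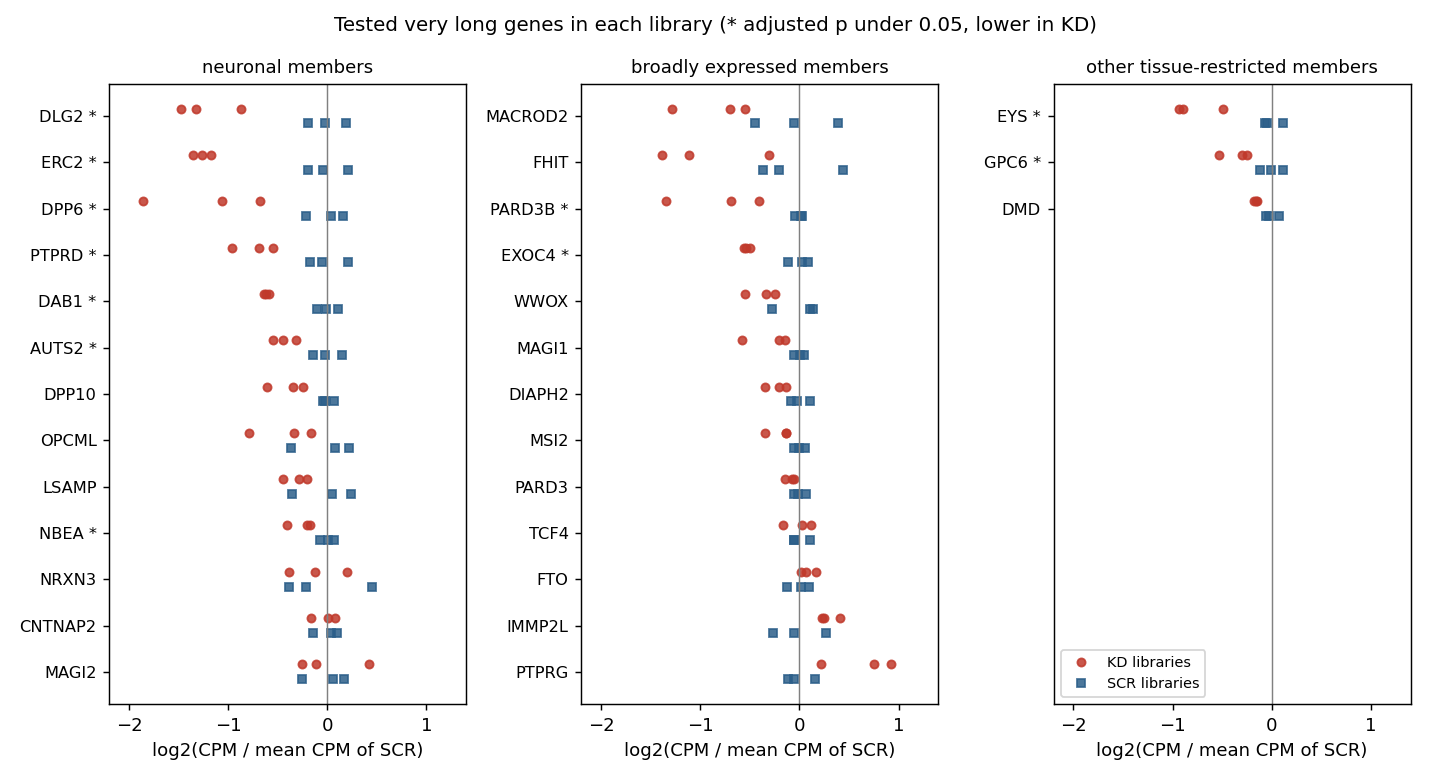
Level of each tested very long gene in each library, as log2 of its CPM over the mean CPM of the 3 SCR libraries, in 3 panels by expression class. Circles are KD libraries and squares SCR libraries, and an asterisk marks the 11 genes called lower. All 3 circles of DLG2 and of ERC2 lie left of every square of that gene, while the circles and squares of CNTNAP2 and MAGI2 overlap.

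Among neuronal genes, 13 of 20 were tested and 7 fell (53.8%), against 15.9% of all tested genes and 42% of other genes of at least 500 kb called lower. The tested neuronal genes were longer, with a median span of 1403 kb against 639 kb in those other genes. Of 13 genes of 1 Mb and over outside the list, 7 (53.8%) were called lower. The largest falls of tested neuronal members were in scaffolds of the synapse. DLG2, which encodes the postsynaptic scaffold PSD-93 (chromosome 11, 83455012 to 85627922), had 1.43, 1.04 and 0.938 CPM in KD libraries 1 to 3, against 2.58, 2.98 and 2.29 CPM in SCR libraries 1 to 3. These levels rest on 11, 20 and 18 counts in KD and 44, 61 and 41 counts in SCR. The groups of DLG2 did not overlap, and it fell 2.41-fold (log2 change -1.27 ± 0.27 SE, adjusted p = 0.00312). ERC2 encodes a scaffold of the presynaptic active zone (chromosome 3, 55508308 to 56468363) and was better measured, with 7.02, 7.51 and 6.62 CPM in KD against 16.4, 19.5 and 14.8 CPM in SCR. It fell 2.40-fold with the smallest adjusted p of the list (log2 change -1.26 ± 0.14 SE, adjusted p = 4.49e-05), and every KD library lay under every SCR library. The third scaffold, MAGI2 (chromosome 7, 78017057 to 79453574), had 2.34, 1.46 and 1.62 CPM in KD against 1.46, 1.81 and 1.96 CPM in SCR. Its groups overlapped (log2 change -0.02 ± 0.28 SE, adjusted p = 0.964). An antisense neighbour that shares exon sequence with it, MAGI2-AS3, was at a mean of 11.6 CPM, so its own low level is uncertain, as nothing says that reads were counted by strand.

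The RefSeq table of gene starts (GRCh38.p14) held windows for 36 of the 40 genes, with up to 10 starts for 1 gene, and 16 genes had a single start. Of these, 3 are shown with the 250 bases before the start, because they let 2 genes that fell, ERC2 and EXOC4, be read beside 1 that was not called, CNTNAP2. Capitals mark the GC box letters GGGCGG or their complement CCGCCC. The windows are chr3:56468468-56468717 (minus strand), chr7:133252828-133253077 (plus strand) and chr7:146116551-146116800 (plus strand).
ERC2: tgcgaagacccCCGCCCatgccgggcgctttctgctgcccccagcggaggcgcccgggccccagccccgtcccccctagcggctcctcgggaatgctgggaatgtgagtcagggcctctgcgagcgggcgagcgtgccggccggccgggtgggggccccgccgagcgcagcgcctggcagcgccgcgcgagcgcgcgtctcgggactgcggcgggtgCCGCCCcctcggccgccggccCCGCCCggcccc
EXOC4: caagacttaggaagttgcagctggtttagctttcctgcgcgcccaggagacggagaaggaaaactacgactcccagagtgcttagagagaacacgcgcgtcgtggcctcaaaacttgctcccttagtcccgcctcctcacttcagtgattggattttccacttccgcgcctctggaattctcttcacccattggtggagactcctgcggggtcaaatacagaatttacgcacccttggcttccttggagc
CNTNAP2: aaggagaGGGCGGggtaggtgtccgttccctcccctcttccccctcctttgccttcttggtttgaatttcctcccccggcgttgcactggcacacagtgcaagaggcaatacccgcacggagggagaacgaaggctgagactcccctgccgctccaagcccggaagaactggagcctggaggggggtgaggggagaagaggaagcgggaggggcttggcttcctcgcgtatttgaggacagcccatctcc
The ERC2 window was 81.2% G and C with 37 CG pairs and 3 GC boxes, and the EXOC4 window 53.6% with 13 CG pairs and 0 GC boxes. The CNTNAP2 window was 62.4% G and C with 12 CG pairs and 1 GC box. On both strands, a GC box was in 39.4% of the 94 windows of the listed genes and in 42.6% of all 35116 windows of that length. The TATA box letters TATAAA (complement TTTATA) were in none of the 3 windows shown, in 12.8% of the listed genes' windows and in 10.7% of all windows. By content of G and C, the 2 genes that fell had the highest and the lowest of the 3 windows, with CNTNAP2 between them.

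Adhesion and receptor genes of neurons moved unequally. PTPRD, a receptor tyrosine phosphatase that organises synapses (chromosome 9, 8314246 to 10612723), had 6.11, 5.06 and 6.72 CPM in KD against 9.48, 8.70 and 11.3 CPM in SCR. It fell 1.65-fold with separate groups (adjusted p = 0.00353). CNTNAP2, a neurexin relative that gathers potassium channels on axons (chromosome 7, 146116002 to 148420998), has the longest span of the tested members, 2.31 Mb, and had 11.1, 10.5 and 9.33 CPM in KD against 11.2, 10.8 and 9.44 CPM in SCR. The groups overlapped almost fully (log2 change -0.03 ± 0.13 SE, adjusted p = 0.862), so a span close to that of PTPRD went with a different value. NRXN3, a presynaptic neurexin, averaged 0.964 ± 0.195 CPM in KD and 1.02 ± 0.331 CPM in SCR (SD, n = 3 each). The IgLON adhesion gene LSAMP had 7.93, 7.09 and 8.39 CPM in KD against 7.55, 9.98 and 11.4 CPM in SCR (adjusted p = 0.152). Its relative OPCML had 0.911, 1.25 and 1.41 CPM in KD against 1.23, 1.66 and 1.84 CPM in SCR (adjusted p = 0.387). In both IgLON genes the groups overlapped and SCR library 1 was the lowest control. Without that control LSAMP was called lower (log2 change -0.45, adjusted p = 0.027).

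DPP6 and DPP10 encode partner subunits of Kv4 potassium channels. DPP6 (chromosome 7, 153887097 to 154894285) had 0.390, 0.887 and 0.678 CPM in KD against 1.58, 1.22 and 1.45 CPM in SCR, and its KD library 1 rests on 3 counts. It fell 2.001-fold (adjusted p = 0.0338), but the call was lost in 5 of the 6 fits without 1 library, with adjusted p-values of 0.0648 to 0.105, and by DESeq2 (adjusted p = 0.101). DPP10 had 1.17, 1.41 and 1.51 CPM in KD against 1.87, 1.76 and 1.73 CPM in SCR, which did not overlap but did not pass the test (log2 change -0.36 ± 0.26 SE, adjusted p = 0.324).

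Signalling and nuclear genes of developing neurons included the most abundant neuronal member. AUTS2, a nuclear regulator of neurodevelopment (chromosome 7, 69598296 to 70793495), had 198, 169 and 181 CPM in KD against 223, 244 and 274 CPM in SCR. It fell 1.35-fold with separate groups (log2 change -0.44 ± 0.10 SE, adjusted p = 0.00364). DAB1, the adaptor that carries the reelin signal (chromosome 1, 56994778 to 58546734), had 9.63, 9.70 and 9.90 CPM in KD against 13.9, 14.8 and 16.0 CPM in SCR. The KD libraries lay close together and the fall was 1.53-fold (adjusted p = 0.00145). DAB1 shares 257 exonic bases with OMA1 on its own strand, a gene at a mean of 14.2 CPM that did not fall (log2 change 0.39, adjusted p = 0.0635). NBEA, a kinase-anchoring protein of membrane traffic (chromosome 13, 34942287 to 35673022), had 40.8, 34.7 and 39.9 CPM in KD against 43.7, 46.2 and 48.3 CPM in SCR. Its fall of 1.20-fold was the smallest called (adjusted p = 0.0401), and the call was lost by DESeq2 (adjusted p = 0.058) and in 5 of the 6 fits without 1 library (adjusted p = 0.0563 to 0.135). NBEA shares 89 exonic bases with MAB21L1 on the other strand, which was at a mean of 207 CPM (log2 change 0.02, adjusted p = 0.873).

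The broadly expressed genes are the nearest to housekeeping members. All 13 were tested, 2 fell and 0 rose. The 15.4% that fell stands beside 15.9% of all tested genes and 42% of other genes of at least 500 kb called lower. FTO, MSI2 and TCF4 of this class are under 500 kb, so the 42% is not of like spans. The count of 2 ran from 1 to 3 without 1 library. It was 4 with upper-quartile scaling, which lowered the median log2 change of all tested genes to -0.06. By sign, 10 of the 13 changes were negative and 3 positive. The libraries of the groups did not overlap in 7 genes lower in KD (53.8%) and in 1 higher, against 23.1% and 22.9% of all tested genes. EXOC4, a subunit of the exocyst that tethers secretory vesicles (chromosome 7, 133253073 to 134066589), had 44.1, 45.3 and 43.4 CPM in KD against 59.0, 64.9 and 67.7 CPM in SCR. It fell 1.44-fold (log2 change -0.53 ± 0.09 SE, adjusted p = 0.000617), and its groups stood far apart. PARD3B, a polarity protein (chromosome 2, 204545793 to 205620162), had 1.82, 2.87 and 3.49 CPM in KD against 4.74, 4.499 and 4.69 CPM in SCR. The fall was 1.61-fold (adjusted p = 0.0214) and was lost without KD library 1, KD library 2, SCR library 2 or SCR library 3 (adjusted p = 0.0544 to 0.0628). Its better expressed relative PARD3 (chromosome 10, 34109560 to 34815325) had 55.2, 52.4 and 55.6 CPM in KD against 55.8, 57.2 and 60.8 CPM in SCR (log2 change -0.09 ± 0.08 SE, adjusted p = 0.42).

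FHIT, WWOX, MACROD2 and IMMP2L, broadly expressed members that lie at known fragile sites, were not called. The list was not divided by fragile site, so these genes do not stand for all of its fragile-site members. FHIT, a dinucleoside phosphate hydrolase (chromosome 3, 59749310 to 61251459), had 0.520, 1.10 and 0.626 CPM in KD against 1.05, 1.17 and 1.84 CPM in SCR. WWOX, a WW-domain oxidoreductase (chromosome 16, 78099413 to 79212667), had 4.68, 4.38 and 3.81 CPM in KD against 4.57, 6.11 and 5.98 CPM in SCR. In both the groups overlapped through SCR library 1 (adjusted p = 0.12 for FHIT and 0.101 for WWOX), and WWOX was called lower without that control (log2 change -0.51, adjusted p = 0.036). MACROD2, which removes ADP-ribose from proteins, averaged 0.434 ± 0.108 CPM in KD and 0.763 ± 0.220 CPM in SCR (SD, n = 3 each, adjusted p = 0.125). IMMP2L, a peptidase of the inner mitochondrial membrane (chromosome 7, 110663051 to 111562517), had 3.12, 3.18 and 3.54 CPM in KD against 2.22, 3.23 and 2.57 CPM in SCR (log2 change 0.30 ± 0.21 SE, adjusted p = 0.309). IMMP2L, PTPRG and FTO were the 3 tested members with a positive change.

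PTPRG, a receptor tyrosine phosphatase, was the member farthest above its controls, with 1.43, 0.991 and 1.62 CPM in KD against 0.820, 0.782 and 0.950 CPM in SCR. Its groups did not overlap, but its log2 change of 0.65 ± 0.32 SE did not pass the test (adjusted p = 0.14). FTO, an RNA demethylase (chromosome 16, 53701692 to 54158512), had 25.6, 23.1 and 23.8 CPM in KD against 24.4, 20.9 and 23.0 CPM in SCR. The junction scaffold MAGI1 had 14.4, 10.7 and 13.9 CPM in KD against 16.0, 15.5 and 16.5 CPM in SCR (adjusted p = 0.0675). The formin DIAPH2 had 16.0, 18.5 and 17.7 CPM in KD against 20.02, 19.2 and 22.0 CPM in SCR (adjusted p = 0.13). MAGI1 and DIAPH2 were lower in every KD library without passing the test, while FTO overlapped (adjusted p = 0.569). The RNA-binding protein gene MSI2 had 221, 191 and 222 CPM in KD against 235, 243 and 253 CPM in SCR (adjusted p = 0.0831). TCF4, a basic helix-loop-helix factor (chromosome 18, 55222331 to 55664787), had 47.7, 41.8 and 51.1 CPM in KD against 45.3, 45.3 and 50.4 CPM in SCR (adjusted p = 0.975). FTO, MSI2 and TCF4 have the 3 shortest spans of the list, all under 500 kb, and 0 of the 3 were called, with unadjusted p-values of 0.431, 0.0314 and 0.96 by edgeR. Upper-quartile scaling moved the median log2 change of all tested genes from 0.00 to -0.06. With that scaling MSI2 and MAGI1 were called lower (adjusted p = 0.0299 and 0.0349).

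Of the 7 genes classed as restricted to other tissues 3 were tested and 2 fell. These are too few to set a share against the 15.9% of all tested genes and the 42% of other genes of at least 500 kb called lower. EYS, a photoreceptor protein (chromosome 6, 63719980 to 65707225), had 4.42, 3.34 and 3.23 CPM in KD against 5.91, 6.70 and 5.98 CPM in SCR. Its fall was 1.75-fold with separate groups (adjusted p = 0.00334). Photoreceptor markers of the tumour type were also lower, with log2 changes of -0.44 for CRX, -0.69 for NRL and -0.59 for IMPG2. These belong to the 9 Group 3 markers, of which 6 had a negative change. The other 3 were positive (GABRA5 0.41, NPR3 0.10 and MYC 0.03). A link between EYS and these markers was not tested. Exons of EYS share 175 bases with PHF3 on the other strand, which was at a mean of 120 CPM and did not fall (log2 change 0.06, adjusted p = 0.614). GPC6, a glypican of the cell surface (chromosome 13, 93226842 to 94407401), had 69.5, 58.9 and 71.6 CPM in KD against 78.7, 84.9 and 92.7 CPM in SCR. It fell 1.28-fold (adjusted p = 0.0116), a call lost without SCR library 3 (log2 change -0.30, adjusted p = 0.0572). DMD, the dystrophin gene (chromosome X, 31097677 to 33339441), had 201, 198 and 201 CPM in KD against 220, 236 and 215 CPM in SCR. These did not overlap, but the log2 change of -0.16 ± 0.08 SE missed the threshold (adjusted p = 0.134). With upper-quartile scaling, which lowered the median log2 change of all tested genes to -0.06, DMD passed (log2 change -0.22, adjusted p = 0.0443). DMD has 7 starts in the RefSeq table, and gene counts do not show which start, and so which part of the 2.24 Mb, was transcribed.

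The 11 members that were not tested had at most 10 counts in a library. CSMD1, CSMD2, RBFOX1 and CTNNA2 had no count in any of the 6 libraries, where 3 counts would be 0.156 to 0.390 CPM in KD and 0.147 to 0.176 CPM in SCR. This limit covers counting error only. Of CSMD3, CTNNA3 and PRKG1 a single count was found in 1 SCR library each, and of THSD7B 2 counts in 1 KD library. SOX2-OT, a non-coding gene around SOX2, had 3 counts in KD library 2 and 1 in SCR library 2. GPC5 had 2, 9 and 9 counts in KD against 8, 9 and 7 counts in SCR. LRP1B, a giant lipoprotein receptor relative, had 1, 0 and 1 counts in KD against 5, 3 and 10 counts in SCR, and it was called lower when no low-count filter was used. All 13 broadly expressed members were tested, while 7 of the neuronal ones were too low.

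Per length of annotated exon, a few genes stood well above the rest. In CPM per kilobase of exon, and in their order in SCR, GPC6 stood at 10.3 in KD and 13.2 in SCR, DMD at 10.6 in KD and 11.8 in SCR, MSI2 at 9.84 in KD and 11.3 in SCR, and AUTS2 at 7.56 in KD and 10.2 in SCR. PARD3, EXOC4 and NBEA followed at 8.35, 4.68 and 3.22 in KD and 8.90, 6.75 and 3.86 in SCR. The lowest in SCR were MAGI2, at 0.0573 in KD and 0.0553 in SCR, and PTPRG, at 0.0920 in KD and 0.0582 in SCR. The lowest in KD were MACROD2, at 0.0380 in KD and 0.0667 in SCR, and DPP6, at 0.0480 in KD and 0.105 in SCR. The annotated exons include those of transcripts that may not be made in these cells, so low values per kilobase can be understated.

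Among tested members the falls were spread over spans and levels. Of the 18 tested genes of at least 1 Mb 8 were called lower (44.4%), with a median log2 change of -0.42, and of the 11 shorter ones 3 (27.3%), with a median of -0.21. Neuronal members were also the longer ones, with a median span of 1403 kb among those tested, against 814 kb in the broadly expressed class. Neuronal and broadly expressed members had median log2 changes of -0.36 and -0.22, and the difference between the classes was not tested. Class and span cannot be told apart in so few genes. Across the 29 genes the log2 change had a Pearson r of -0.41 and a Spearman rho of -0.40 with log10 span, and 0.18 and 0.23 with mean log2 CPM. These are descriptions across genes of the same 6 libraries, which are not independent replicates.

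**Figure D2:**
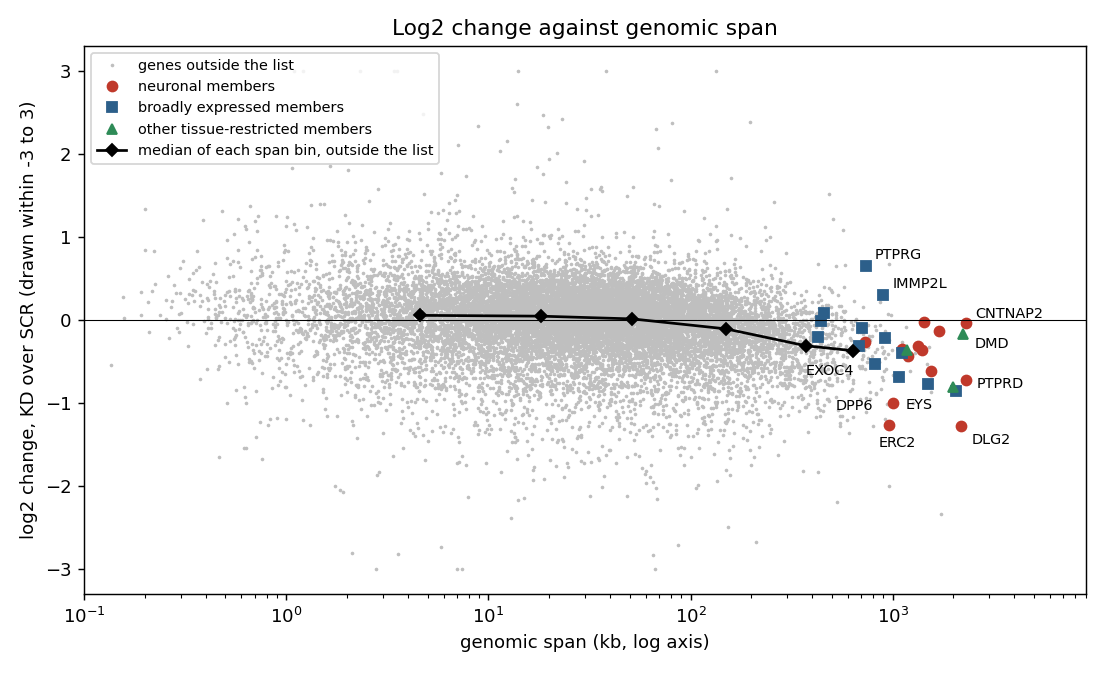
Log2 change (KD over SCR) against genomic span in kb on a log axis, for 14544 tested genes outside the list (grey) and the 29 tested members (coloured by class). Black diamonds join the medians of 6 span bins of genes outside the list, which run from 0.06 under 10 kb to -0.37 at 500 kb and over, and 26 of the 29 members lie below 0. Changes beyond 3 in size are drawn at 3.

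Genes outside the list also differed by span. Outside the list, 9.29% of genes under 10 kb were called lower and 17.7% higher, with a median log2 change of 0.06. From 100 to 300 kb the shares were 25.0% lower and 7.08% higher (median -0.11), and from 300 to 500 kb 40.4% lower and 2.01% higher (median -0.31). The shares were alike where only genes with at least 5 kb of exon were counted, with 45.9% lower and 1.91% higher among 157 genes of 500 kb and over. Of 13 tested genes of 1 Mb and over outside the list, 7 were called lower and 0 higher.

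**Figure D3:**
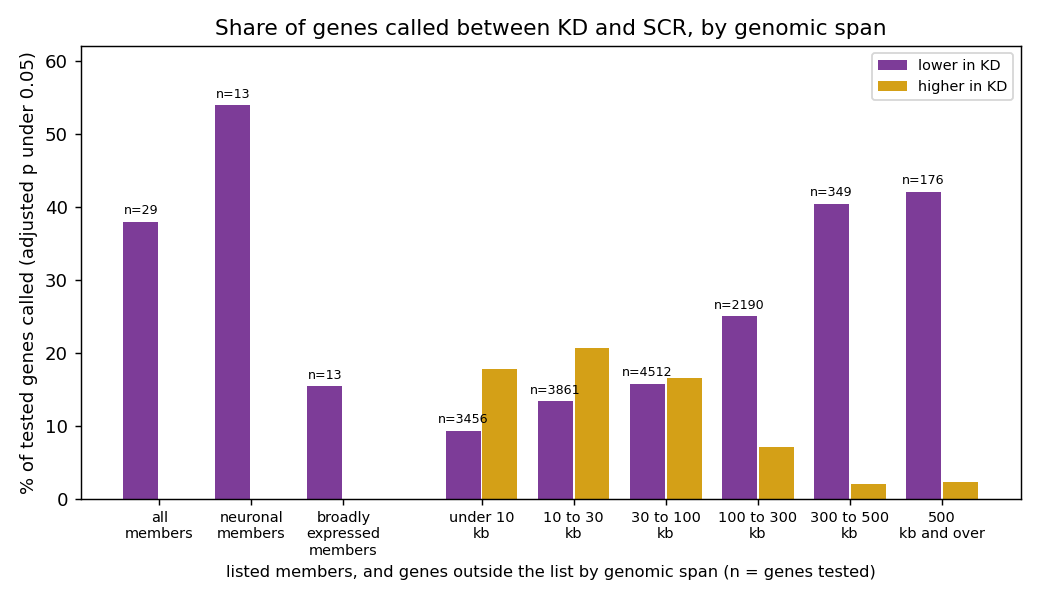
Share of tested genes called lower (purple) or higher (gold) in KD, in percent, for the listed members and for genes outside the list by genomic span, with the number tested over each purple bar. Called lower were 37.9% of members, 53.8% of the neuronal and 15.4% of the broadly expressed class, and 42% of other genes of 500 kb and over.

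Library by library, the members followed the span trend unequally. The slope of log2 level on log10 span over 14573 genes, each library set against the mean of SCR libraries (for an SCR library, of the other 2), was -0.08, -0.20 and -0.06 per unit of log10 span in KD libraries 1 to 3 and -0.01, -0.00 and 0.02 in SCR libraries 1 to 3. KD library 2 was the steepest, and it was also the library with the lowest share of mitochondrially encoded counts, 5.38%, against 6.05% and 6.03% in KD libraries 1 and 3 and 5.84% to 6.37% in SCR. The part of that share in the result was not tested. Over the 6 libraries the slope of the log2 change was -0.12, and without KD library 2 it was -0.06.

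The members lay below the controls in all 3 KD libraries by their medians. The median deviation from the controls was -0.29, -0.35 and -0.20 in KD libraries 1 to 3, with 22, 25 and 25 of the 29 genes below the controls. In SCR libraries 1 to 3, each set against the other 2, it was -0.08, -0.01 and 0.11, with 22, 17 and 8 genes below. SCR library 1 thus had as many members below as KD library 1. Without KD library 2, 9 members were called lower, NBEA and PARD3B being lost, and the median log2 change was -0.27. In genes of 500 kb and over outside the list, the medians were -0.29, -0.44 and -0.35 in KD libraries 1 to 3 and -0.12, 0.03 and 0.08 in SCR libraries 1 to 3. In genes under 10 kb the median was 0.16 in KD library 2 and 0.03 and -0.01 in KD libraries 1 and 3. SCR library 1 was the control nearest to the knockdown in both sets of long genes. Without SCR library 3, the control farthest from the knockdown in both sets, 7 members were called lower (DPP6, GPC6, NBEA and PARD3B lost).

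**Figure D4:**
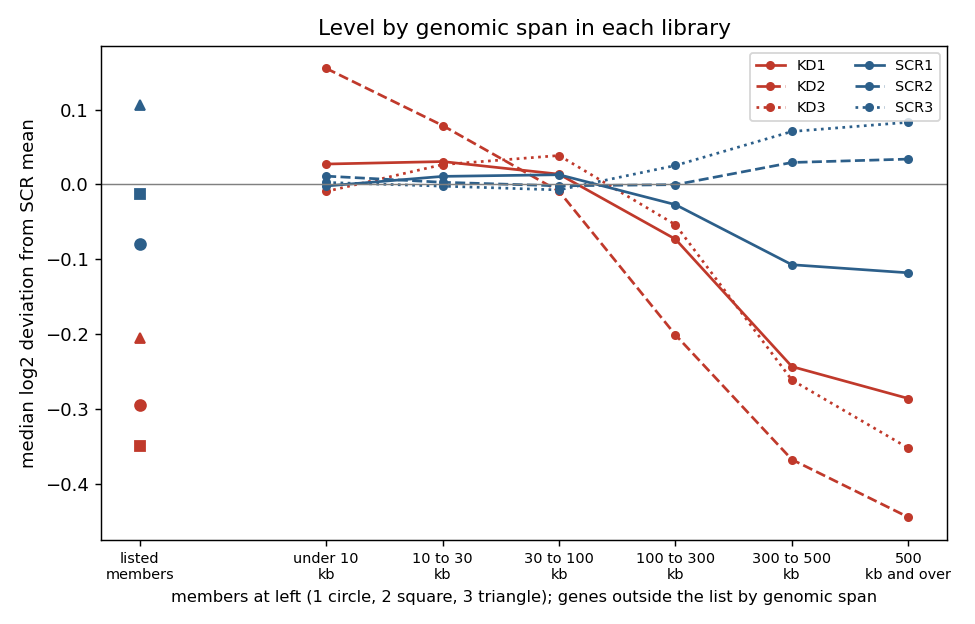
Median log2 deviation of each library from the mean of SCR libraries (of the other 2 SCR libraries for an SCR library), for the 29 tested members at the left and for genes outside the list in 6 bins of genomic span. Red is KD and blue SCR, and a circle, square and triangle mark the members in libraries 1, 2 and 3. KD library 2 declines from 0.16 under 10 kb through every bin, KD libraries 1 and 3 stay near 0 up to 100 kb, and the 3 reach -0.29, -0.44 and -0.35 in KD libraries 1 to 3 at 500 kb and over.

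A further list of 55 long genes not among the members, many of them neuronal or in fragile sites, gave 12 falls and 0 rises among 30 tested (40% lower, median log2 change -0.46). That share stood beside 15.9% of all tested genes and 42% of genes of at least 500 kb outside the members, which include many of this list. PDE4D, a cAMP phosphodiesterase, had 2.60, 2.87 and 2.66 CPM in KD against 4.45, 5.48 and 5.03 CPM in SCR and fell 1.83-fold (adjusted p = 0.00297). ROBO1, a Slit receptor, had 42.5, 38.7 and 47.5 CPM in KD against 53.3, 61.5 and 64.7 CPM in SCR and fell 1.39-fold (adjusted p = 0.00319). In both the groups did not overlap.

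Of the genes whose proteins help RNA polymerase II through long genes, more were called higher than lower. Of 36 topoisomerase, elongation and termination genes, 13 rose and 1 fell (36.1% and 2.78%, against 15.9% of all tested genes in each direction). Their median log2 change was 0.21. Their median level was 92.3 CPM, against 21.1 CPM over all tested genes, and the shares were not matched for level. TOP1, the topoisomerase that relaxes DNA ahead of the polymerase, had 232, 206 and 241 CPM in KD against 172, 135 and 145 CPM in SCR. It rose 1.502-fold with separate groups (adjusted p = 0.000851). TDP2, which repairs trapped topoisomerase II, rose 1.37-fold (adjusted p = 0.00266), CDK12, a kinase of elongating polymerase, 1.403-fold (adjusted p = 0.00405), and SUPT16H, a subunit of the histone chaperone FACT, 1.31-fold (adjusted p = 0.00408). The member that fell, SUPT6H, is a histone chaperone of elongation and was singled out after its value was seen (log2 change -0.41 ± 0.10 SE, adjusted p = 0.00602).

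Of 35 genes that guard replication at fragile sites, 8 rose and 2 fell (22.9% and 5.71%, against 15.9% of all tested genes in each direction; median log2 change 0.02). CLSPN, the checkpoint mediator claspin, had 71.7, 59.3 and 66.8 CPM in KD against 54.6, 44.9 and 42.4 CPM in SCR and rose 1.39-fold (adjusted p = 0.00438). ATR, the kinase it serves, rose 1.30-fold (adjusted p = 0.0163), and BLM, a helicase, 1.28-fold (adjusted p = 0.0194). RECQL5, a helicase that binds RNA polymerase II, fell 1.26-fold, with 39.8, 42.1 and 39.4 CPM in KD against 47.5, 50.5 and 55.2 CPM in SCR (adjusted p = 0.0111). TIMELESS, a fork protection protein, was the other that fell (log2 change -0.28, adjusted p = 0.0198), named after its value was seen. These genes are short beside the members, with a median span of 48.6 kb, and elongation genes had one of 45.9 kb. The 35 fragile-site genes had a median level of 47.2 CPM, against 21.1 CPM over all tested genes, and were not matched for level either.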

How the data were processed

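Polyadenylated RNA of 6 libraries of D283 Med cells (3 KD, 3 SCR; groups and replicate numbers from the titles) was sequenced from TruSeq Stranded mRNA libraries, per the labels. Trim Galore 0.6.4, STAR 2.7.9a, RSEM and the build GRCh38.p13 are named, per the submitters' processing notes, with no order. Annotation, strand setting and RSEM version were not given in the sources used here. The deposited files hold whole numbers, read here as RSEM expected counts that the authors rounded, for 60708 rows each. The 44 pseudoautosomal Y rows were added to their X copies. RSEM shares reads among matching genes, so overlapping genes are uncertain.

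Counts were fitted in R 4.3.3 with edgeR 4.0.16, using its default low-count filter for the 2 groups, TMM scaling, no covariate and the 2-sided quasi-likelihood F test, with Benjamini-Hochberg adjustment over 14673 genes and a threshold of 0.05. Each SE is approximate: the size of the log2 change over the root of its F. CPM use TMM-scaled totals. Library deviations are of log2 CPM with a prior count of 2. Span and exon length are from GENCODE 29, whose release may differ from the authors' annotation. The members, classes and lists were chosen with earlier results of these data known. Values in every library are given for tested members whose mean reached 1 CPM. From each further list the 4 genes of smallest adjusted p are named, except those not reported here. The test and the offset were tested on simulated data. Replicates were not copies of each other (chi-square over degrees of freedom, 2.81 to 16.5). Alternatives were other scalings, filters and tests (DESeq2 1.42.0, limma-voom 3.58.1), a replicate block, a gene-span offset (lowess), each library left out, and a threshold of 0.01. The span slope in genes with at least 5 kb of exon, or with further terms, and the counts of long genes outside the list were added after seeing the data.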

Additional observations from a re-analysis of the deposited data

How the results depend on the processing

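The 11 members called lower and 0 called higher held at 9 to 14 lower and 0 higher under other scalings, filters and tests. The 14 came with upper-quartile scaling, where the median log2 change of all tested genes was -0.06. With an adjusted p under 0.01 the count was 7, and leaving out each library in turn gave 7 to 12. With the gene-span offset 1 was called lower and 7 higher, alone or with a replicate block. By the offset's own construction it removes what long genes share. Of other genes of 500 kb and over 74 were called lower, 23 with the offset, with or without the block, and 48 at 0.01; leaving out each library gave 51 to 74. All genes called numbered 4657, 2459 at 0.01, and 2704 (without SCR library 2) to 5114 (without SCR library 1) and 2891 without SCR library 3; upper-quartile scaling gave 1773 higher and 2803 lower, in place of 2328 and 2329. The span slope of -0.12 ran from -0.06 to -0.16 without 1 library, and was -0.18 with no filter, -0.14 with exonic length in place of span, -0.16 in protein-coding genes and, added after seeing the data, -0.20 in genes with at least 5 kb of exon and -0.13 with exonic length and level as further terms.

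With the gene-span offset, and with it and the replicate block, these log2 changes turned positive: CNTNAP2 0.52 and 0.54, MAGI2 0.47 and 0.47, DPP10 0.13 and 0.13, AUTS2 0.0168 and 0.0175, NBEA 0.11 and 0.11, LSAMP 0.17 and 0.16, OPCML 0.10 and 0.0607, MAGI1 0.0492 and 0.0537, WWOX 0.0586 and 0.049999, MSI2 0.0846 and 0.0843, TCF4 0.29 and 0.29, DIAPH2 0.20 and 0.20, PARD3 0.28 and 0.28, DMD 0.39 and 0.39, GPC6 0.09004 and 0.0882. Leaving out each library gave -0.10 to 0.0299 for CNTNAP2, -0.18 to 0.11 for MAGI2 and -0.0871 to 0.0795 for TCF4, which were not called.

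Deviations from the group means had correlations of 0.03, 0.10 and -0.03 between same-numbered KD and SCR libraries. Other pairs ran from -0.08 to 0.04, so the value for libraries numbered 2 was the largest. With 3 libraries in each group this check cannot exclude a pairing or a shared batch. With a replicate block 4742 genes and 11 members, all lower, were called, and 0 member calls changed. Depth limits the members under 1 CPM most, and those in KD library 1.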
